A study of Mus musculus with 15 samples.

Results

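The expression of 10 genes that mark mast cells was followed in RNA from the ears of *Socs3* cKO and wild type mice, taken either 2 or 10 weeks after birth. The genes were *Cma1*, *Mcpt4*, *Tpsab1*, *Tpsb2*, *Cpa3*, *Fcer1a*, *Ms4a2*, *Hdc*, *Tph1* and *Gata2*, chosen by name and matched exactly to the gene symbols of the deposited tables. Of these, 9 were found among 21110 genes, and *Tpsab1*, a tryptase, was not analysed here. The 15 libraries, each from 1 mouse, fell into 4 groups, with 4 mice of each genotype at 2 weeks and, at 10 weeks, 4 *Socs3* cKO mice beside 3 of the wild type. All mice had the C57BL/6 background, and in *Socs3* cKO the gene for the cytokine signalling inhibitor SOCS3 is deleted in cells that use the keratin 5 promoter, which is active in basal keratinocytes. Mast cells, which arise from blood progenitors, are not known to use that promoter. RNA came from whole ear pieces, although the labels name keratinocytes as the source. Dermal markers were abundant, with a summed level of 6 fibroblast genes of 3858 to 14859 FPKM (fragments per kilobase of transcript, scaled to the mapped reads of the library) over the 15 libraries, beside 4748 to 11571 FPKM for 5 keratinocyte genes.

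Mast cells are tissue-resident leukocytes of the dermis that store proteases, histamine and heparin in granules and release them when IgE bound to their high-affinity receptor is cross-linked. Mast cells of connective tissue, such as those of the skin, are known for the chymases, tryptases and carboxypeptidase that the first 5 genes encode. GATA2 is a transcription factor that mast cells need, and GATA factors bind sequences with the core GATA.

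The promoter windows of both chains of the IgE receptor measured here and of 2 granule proteases are shown because the sequence GATAA, a form of the GATA motif, occurs in them. Each window covers the 250 bases before the RefSeq start site in GRCm38.p6, a later build than the mm9 used for the expression values, read on the strand of the gene, with GATAA or its reverse complement TTATC in capitals.
Ms4a2 (chr19:11623720-11623969, minus strand): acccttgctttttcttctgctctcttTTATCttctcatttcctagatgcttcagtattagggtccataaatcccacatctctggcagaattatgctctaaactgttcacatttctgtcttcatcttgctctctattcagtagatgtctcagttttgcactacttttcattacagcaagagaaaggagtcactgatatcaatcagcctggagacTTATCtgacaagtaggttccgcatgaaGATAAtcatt
Fcer1a (chr1:173227230-173227479, minus strand): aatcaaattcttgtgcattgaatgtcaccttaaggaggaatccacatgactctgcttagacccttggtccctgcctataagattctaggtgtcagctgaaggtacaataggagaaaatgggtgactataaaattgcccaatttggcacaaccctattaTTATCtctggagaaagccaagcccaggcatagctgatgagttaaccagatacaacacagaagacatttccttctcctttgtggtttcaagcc
Cpa3 (chr3:20242182-20242431, minus strand): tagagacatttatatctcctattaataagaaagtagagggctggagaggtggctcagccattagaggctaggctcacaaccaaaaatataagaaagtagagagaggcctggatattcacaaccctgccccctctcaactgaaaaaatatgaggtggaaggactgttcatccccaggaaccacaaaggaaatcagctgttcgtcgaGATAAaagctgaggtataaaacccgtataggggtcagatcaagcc
Mcpt4 (chr14:56062311-56062560, minus strand): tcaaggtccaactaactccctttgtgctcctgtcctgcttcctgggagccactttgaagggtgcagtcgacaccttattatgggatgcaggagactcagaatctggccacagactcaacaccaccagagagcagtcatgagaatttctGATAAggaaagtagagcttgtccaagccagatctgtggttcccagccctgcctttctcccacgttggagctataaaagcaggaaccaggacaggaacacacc
In these windows, *Ms4a2* held 3 copies, whose first letters lay 224, 37 and 10 bases before the start site. *Fcer1a* held 1 copy at 92 bases, *Cpa3* 1 copy at 45 bases and *Mcpt4* 1 copy at 102 bases before the start site. *Cma1* also held 1 copy, and none was found in the windows of *Hdc*, *Tph1* or *Gata2*. In all, 5 of the 10 windows of 8 matched members held GATAA on either strand, against 22.6% of 32851 promoter windows of the same length. *Tpsb2* had no entry. A match of these letters is a description and not evidence of binding.

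A few features of the libraries bear on every value below. The estimated number of mapped reads was 1.17e+07 to 1.66e+07 per library. In wild type mice at 10 weeks 1414 to 3176 genes were listed at 0, against 4044 to 4423 in the other 12 libraries. The log2 level, relative to the mean of the 2-week wild type, had a slope on the GC content of a gene of -0.63 to -0.48 for every 10 percentage points in 3 of the 2-week *Socs3* cKO mice and of -1.77 in replicate 1. In the 10-week libraries the slope was -0.47 to -0.22 for the wild type against -0.72 to -0.46 for *Socs3* cKO. The slope for every doubling of transcript length, fitted together with GC content, was -0.047 to 0.034 for the 2-week wild type. It was -0.83 to -0.12 for 2-week *Socs3* cKO, -0.67 to -0.38 for the 10-week wild type and -0.49 to -0.15 for 10-week *Socs3* cKO. The library numbers run in a separate range for each group, so library batch and condition cannot be told apart. *Socs3* itself was measured at 9.71, 10.2, 10.3 and 10.3 FPKM in the wild type and 1.25, 9.32, 12.6 and 3.51 FPKM in *Socs3* cKO at 2 weeks. At 10 weeks it was 2.76, 4.81 and 2.02 FPKM in the wild type and 36.5, 29.8, 47.7 and 32.4 FPKM in *Socs3* cKO. Since ear RNA also holds cells that keep the gene, these levels do not check the genotype labels, and the group names below are those of the labels.

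**Figure D1:**
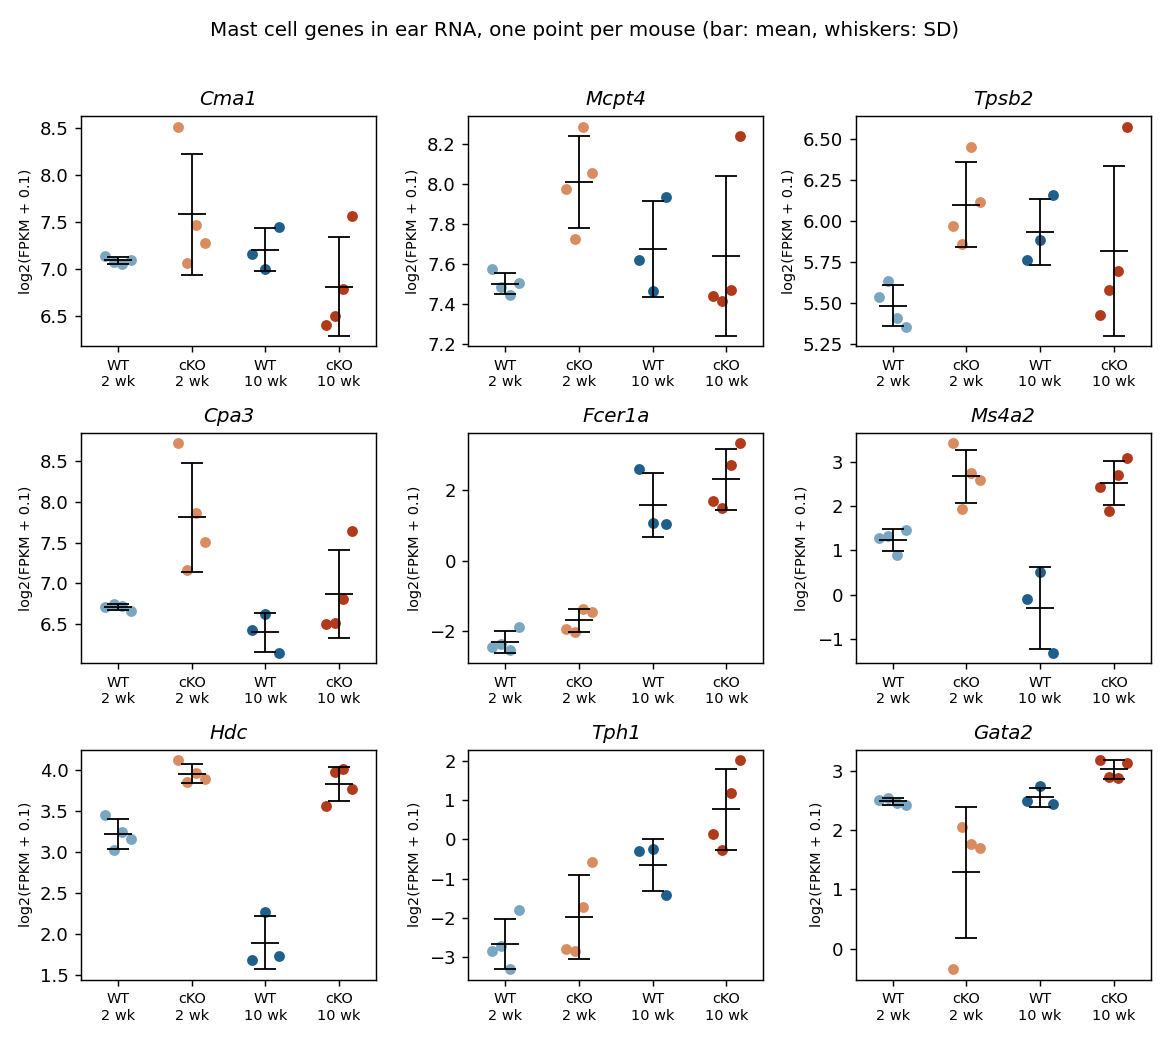
Level of each of the 9 genes as log2(FPKM + 0.1) in the 15 libraries, 1 panel for each gene, with 1 point for each mouse, the group mean as a bar and the SD as whiskers (the vertical scale differs between panels). *Fcer1a* separated the ages, with 0.0714 to 0.290 FPKM in the 8 mice at 2 weeks and 1.94 to 9.86 FPKM in the 7 mice at 10 weeks, while *Hdc* was lowest in the wild type at 10 weeks.

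The granule proteases were the most abundant members in all 4 groups. *Mcpt4*, a chymase that is on chromosome 14 of mm9 from 56678581 to 56681147, had the highest mean of the 9 genes in each group, between 181 and 260 FPKM, and ranked 318th to 377th of 21110 genes. Its levels at 2 weeks were 191, 179, 174 and 182 FPKM in the wild type and 251, 212, 313 and 266 FPKM in *Socs3* cKO, so that every *Socs3* cKO mouse lay above every wild type mouse. The log2(FC) was 0.51 (SE 0.14), which did not pass the study's thresholds of an adjusted p below 0.01 and a |log2(FC)| of at least 1 (adjusted p = 0.0221, limma). At 10 weeks *Mcpt4* was at 197, 177 and 245 FPKM in the wild type and at 174, 171, 177 and 303 FPKM in *Socs3* cKO. The groups overlapped there, with a log2(FC) of -0.03 (SE 0.24, adjusted p = 0.923, limma), and replicate 4 alone held the high value in *Socs3* cKO. Of 941 words of 50 bases in the *Mcpt4* transcript, 58 also occur in other transcripts, among them those of *Cma2* and *Mcpt9*, so some of its reads may be shared with them. No such word was found for the other 8 genes.

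*Cma1*, the chymase also called mast cell protease 5, lies nearby on chromosome 14 from 56560290 to 56563498. It was at 141, 135, 132 and 137 FPKM in the wild type and 366, 133, 177 and 155 FPKM in *Socs3* cKO at 2 weeks, and the groups overlapped (log2(FC) 0.49, SE 0.29, adjusted p = 0.182, limma). The high value was that of replicate 1, the library with the steepest GC slope, and without it the log2(FC) was 0.18 (SE 0.11, adjusted p = 0.197, limma). At 10 weeks *Cma1* was at 143, 128 and 175 FPKM in the wild type and 84.5, 90.6, 110 and 189 FPKM in *Socs3* cKO, again with overlap (log2(FC) -0.39, SE 0.28, adjusted p = 0.282, limma).

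*Tpsb2*, a tryptase on chromosome 17 from 25503486 to 25505804, was at 46.3, 49.5, 42.4 and 40.7 FPKM in the wild type and 62.5, 57.8, 87.4 and 69.2 FPKM in *Socs3* cKO at 2 weeks. The groups did not overlap, and the log2(FC) of 0.62 (SE 0.16) missed both thresholds (adjusted p = 0.0153, limma). It was the protease whose 2-week difference moved least when the trend of each library with gene length and GC content was removed, at 0.62 (SE 0.13, adjusted p = 0.00574, limma). At 10 weeks the levels were 54.2, 58.9 and 71.2 FPKM in the wild type and 42.8, 47.6, 51.6 and 95.2 FPKM in *Socs3* cKO, which overlapped (log2(FC) -0.12, SE 0.27, adjusted p = 0.748, limma).

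*Cpa3*, the carboxypeptidase of the granule (chromosome 3, 20115516 to 20142080), showed the largest protease difference. At 2 weeks it was at 105, 108, 105 and 101 FPKM in the wild type and 420, 143, 232 and 182 FPKM in *Socs3* cKO, without overlap. Its log2(FC) of 1.10 (SE 0.30) passed the minimum fold but not the adjusted p of 0.01 (adjusted p = 0.019, limma). The transcript has 41.4% GC, and with the length and GC trend removed the value was -0.29 (SE 0.13, adjusted p = 0.101, limma), so the direction at 2 weeks rested on the treatment of that trend. *Cma1* and *Mcpt4* also turned sign in that alternative, to -0.24 and -0.32. At 10 weeks *Cpa3* was at 85.8, 98.9 and 71.1 FPKM in the wild type and 90.7, 91.7, 112 and 200 FPKM in *Socs3* cKO (log2(FC) 0.47, SE 0.28, adjusted p = 0.208, limma). No protease changed with age in either genotype under the study's thresholds, the nearest being *Cpa3* in *Socs3* cKO with a log2(FC) of -0.94 (SE 0.30, adjusted p = 0.0614, limma). With the length and GC trend removed, *Cpa3* was called lower with age in the wild type (-1.37, adjusted p = 2.03e-05, limma).

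The high-affinity IgE receptor, whose ligand-binding alpha chain is encoded by *Fcer1a* and whose signal-amplifying beta chain is encoded by *Ms4a2*, showed a different pattern for each chain. *Ms4a2* (chromosome 19, 11690013 to 11698209) was at 2.31, 2.42, 1.75 and 2.66 FPKM in the wild type and 10.6, 3.75, 6.57 and 5.94 FPKM in *Socs3* cKO at 2 weeks. The groups did not overlap, and *Ms4a2* was the 1 member of 7 tested that was called a DEG, up-regulated in *Socs3* cKO (log2(FC) 1.43, SE 0.30, adjusted p = 0.0079, limma), where 14.4% of 13524 genes were called, 7.24% higher and 7.19% lower. In a bulk sample, fewer or more cells of a type cannot be told apart from less or more RNA for each cell. *Ms4a2* has the lowest GC content of the 9 transcripts, 37.6%, and with the length and GC trend removed its value was 0.15 (SE 0.18, adjusted p = 0.507, limma), so this call was lost. It was also lost when any 1 of the 4 wild type mice, or *Socs3* cKO replicate 3 or 4, was left out, where the adjusted p reached 0.0277 (limma). Without *Socs3* cKO replicate 1 the call stood, with a log2(FC) of 1.19 (SE 0.22, adjusted p = 0.00217, limma).

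At 10 weeks *Ms4a2* was at 0.828, 1.32 and 0.305 FPKM in the wild type and 5.27, 3.60, 6.36 and 8.38 FPKM in *Socs3* cKO. The lowest *Socs3* cKO mouse was above the highest wild type mouse, and *Ms4a2* was up-regulated with a log2(FC) of 2.83 (SE 0.43, adjusted p = 0.00158, limma). Here *Ms4a2* passed the filter of at least 1 FPKM in at least 3 samples through the *Socs3* cKO group. Of the wild type mice, only the one at 1.32 FPKM reached 1 FPKM. *Ms4a2* was 1 of 2 members of 8 tested called higher, in a comparison where 14.9% of 13105 genes were called, 12.5% higher and 2.43% lower. The value stayed at 2.64 (SE 0.36, adjusted p = 0.000828, limma) with the length and GC trend removed and between 2.32 and 3.23 when each mouse was left out. With no filter on low genes the call was lost (adjusted p = 0.0133, limma). The wild type levels at 10 weeks rest on an estimated 9.30 to 41.6 reads for each library, against 140 to 331 in *Socs3* cKO. Within the wild type *Ms4a2* was down-regulated from 2 to 10 weeks (log2(FC) -1.54, SE 0.41, adjusted p = 0.00716, limma), 1 of 3 members of 8 tested that were called, where 25.5% of 13937 genes were called, 19.4% lower and 6.18% higher. Median-of-ratios scaling gave -1.20 (SE 0.43, adjusted p = 0.0349, limma) and quantile normalization -0.84 (adjusted p = 0.13, limma), and the call was lost under both. It was also lost at a pseudocount of 1, with no filter on low genes, with the replicate block, and without any 1 wild type mouse other than replicate 2 at 10 weeks, *Socs3* cKO replicate 3 at 2 weeks or *Socs3* cKO replicate 1 at 10 weeks, where the value ran from -1.66 to -1.04 and the adjusted p reached 0.0497 (limma). In *Socs3* cKO the change with age was -0.15 (SE 0.38, adjusted p = 0.804, limma). The difference between the genotype effects at both ages was 1.39 (SE 0.56, adjusted p = 0.0542, limma), which did not pass, and 2.42 (adjusted p = 0.000464, limma) with the length and GC trend removed, which did.

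*Fcer1a* (chromosome 1, 175151402 to 175157360) was near the detection limit at 2 weeks. Its levels were 0.0839, 0.0949, 0.0714 and 0.174 FPKM in the wild type and 0.163, 0.147, 0.290 and 0.265 FPKM in *Socs3* cKO, which is an estimated 1.14 to 2.31 and 2.28 to 4.60 reads for each library. It did not pass the filter of at least 1 FPKM in at least 3 samples. With no filter on low genes its log2(FC) at 2 weeks was 0.61 (SE 0.21, adjusted p = 0.069, limma), which was not called. At 10 weeks it was at 5.98, 1.98 and 1.94 FPKM in the wild type and 3.10, 2.72, 6.46 and 9.86 FPKM in *Socs3* cKO. The lowest of the 7 mice at 10 weeks was above the highest of the 8 mice at 2 weeks, while the genotypes overlapped at 10 weeks (log2(FC) 0.74, SE 0.51, adjusted p = 0.275, limma). *Fcer1a* was up-regulated with age in the wild type by a log2(FC) of 3.87 (SE 0.46, adjusted p = 2.21e-05, limma) and in *Socs3* cKO by 3.99 (SE 0.43, adjusted p = 4.18e-05, limma). In *Socs3* cKO it was the 1 member of 8 tested called in either direction, where 3.54% of 13937 genes were called, 2.01% higher and 1.53% lower. It passed the filter through the 10-week groups alone, and these fold changes are on the scale of log2(FPKM + 0.1), which understates the change of a gene so low at 2 weeks. The call stood in both genotypes under each alternative tried, with smallest values of 1.83 for the wild type against 2.29 for *Socs3* cKO, both at a pseudocount of 1.

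Of the enzymes that make amine mediators, *Hdc* encodes histidine decarboxylase, which forms histamine, and *Tph1* encodes the tryptophan hydroxylase that starts serotonin synthesis outside neurons. *Hdc* (chromosome 2, 126419403 to 126445035) was at 10.9, 8.04, 9.39 and 8.85 FPKM in the wild type and 17.3, 14.3, 15.6 and 14.8 FPKM in *Socs3* cKO at 2 weeks. The groups did not overlap, and the log2(FC) of 0.74 (SE 0.14) passed the adjusted p but not the minimum fold (adjusted p = 0.00591, limma). With the length and GC trend removed it was 1.02 (SE 0.17, adjusted p = 0.00226, limma), which passed both. At 10 weeks *Hdc* was at 3.13, 4.72 and 3.22 FPKM in the wild type and 11.8, 15.6, 16.1 and 13.6 FPKM in *Socs3* cKO. It was up-regulated with a log2(FC) of 1.94 (SE 0.21, adjusted p = 0.000337, limma), and this call stood under every alternative, with values from 1.52 to 2.12.

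*Hdc* was also the 1 member of 8 tested whose genotype effect differed between the ages, by 1.20 (SE 0.25, adjusted p = 0.00221, limma), where 24.5% of 13937 genes were called, 18% higher and 6.55% lower. In the wild type it was down-regulated from 2 to 10 weeks (log2(FC) -1.33, SE 0.18, adjusted p = 7.26e-05, limma), and in *Socs3* cKO the change was -0.13 (SE 0.17, adjusted p = 0.623, limma). Both calls were lost when the libraries were scaled differently. With median-of-ratios scaling the difference between ages was 0.74 (SE 0.27, adjusted p = 0.0372, limma) and the change in the wild type -0.94 (SE 0.20, adjusted p = 0.00158, limma), and with quantile normalization they were 0.49 (adjusted p = 0.104, limma) and -0.69 (adjusted p = 0.00467, limma). With the length and GC trend removed the difference between ages was 0.99 (SE 0.26, adjusted p = 0.00819, limma), just under the minimum fold.

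*Tph1* (chromosome 7, 53902500 to 53927907) was the lowest member at 2 weeks, with 0.0379, 0.0511, 0 and 0.187 FPKM in the wild type and 0.0439, 0.0395, 0.204 and 0.572 FPKM in *Socs3* cKO. At 10 weeks it was at 0.721, 0.744 and 0.275 FPKM in the wild type and 0.994, 0.733, 2.17 and 3.98 FPKM in *Socs3* cKO. Every 10-week mouse was above every 2-week mouse of its genotype, and the genotypes overlapped at both ages. *Tph1* did not pass the filter in any comparison. Without a filter its change with age was 2.03 (adjusted p = 0.0244, limma) in the wild type and 2.75 (adjusted p = 0.0185, limma) in *Socs3* cKO, neither below 0.01.

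*Gata2* (chromosome 6, 88143885 to 88157024) lay opposite to the other members tested at 2 weeks in the deposited values. It was at 5.60, 5.78, 5.41 and 5.30 FPKM in the wild type and 0.684, 4.06, 3.31 and 3.17 FPKM in *Socs3* cKO, so every *Socs3* cKO mouse was below every wild type mouse. The log2(FC) was -1.19 (SE 0.48, adjusted p = 0.0689, limma), and without replicate 1, the mouse at 0.684 FPKM, it was -0.65 (SE 0.12, adjusted p = 0.00246, limma). With the length and GC trend removed it was -0.32 (SE 0.26, adjusted p = 0.339, limma), on the same side of 0 as *Cma1*, *Mcpt4* and *Cpa3* in that alternative. At 10 weeks it was at 5.53, 6.61 and 5.33 FPKM in the wild type and 9.02, 7.39, 7.28 and 8.74 FPKM in *Socs3* cKO, with every *Socs3* cKO mouse now above (log2(FC) 0.47, SE 0.18, adjusted p = 0.0681, limma). The difference between the ages in the genotype effect was 1.66 (SE 0.56, adjusted p = 0.0263, limma), and the change with age in *Socs3* cKO was 1.73 (SE 0.38, adjusted p = 0.0104, limma), just outside the threshold. Without *Socs3* cKO replicate 1 both passed, at 1.12 (SE 0.20, adjusted p = 0.000534, limma) and 1.19 (SE 0.14, adjusted p = 0.00011, limma).

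**Figure D2:**
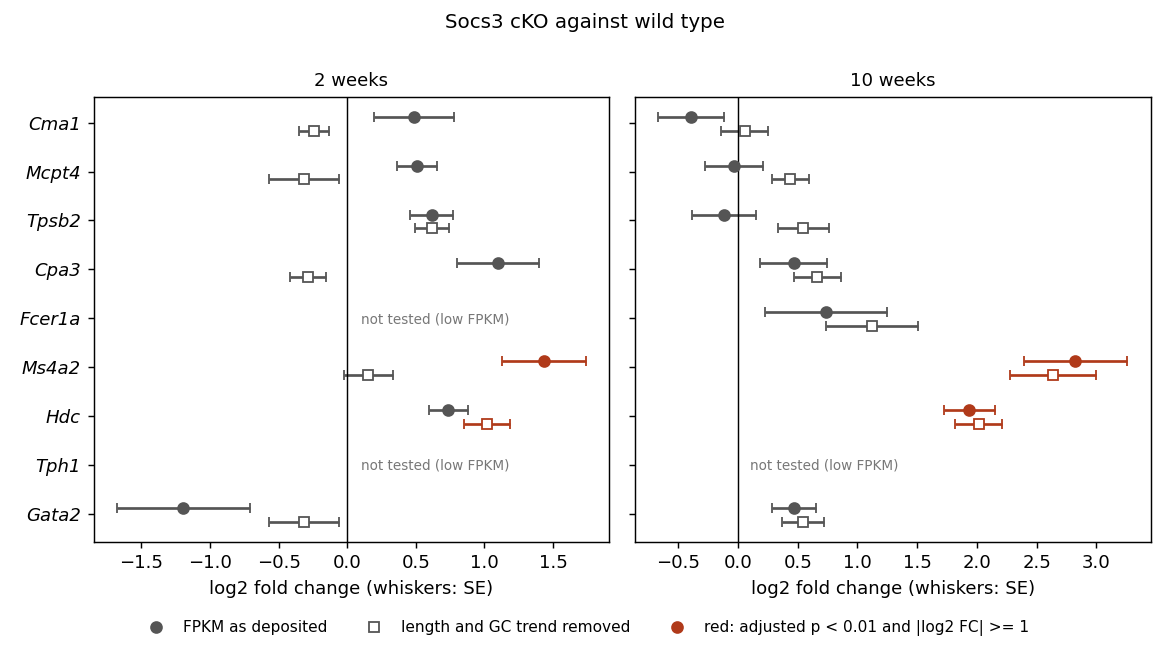
Log2 fold change of *Socs3* cKO against the wild type with its SE for each member at 2 weeks (left) and 10 weeks (right), from the FPKM values as deposited (circles) and with the length and GC trend of each library removed (squares), in red where the adjusted p was below 0.01 and the |log2(FC)| at least 1. *Ms4a2* was called from the deposited values at both ages and *Hdc* at 10 weeks, and at 2 weeks *Cma1*, *Mcpt4* and *Cpa3* lie on opposite sides of 0 in the 2 treatments.

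Over the members tested, 6 of 7 had a log2(FC) above 0 at 2 weeks, with a median of 0.62 against -0.21 over all genes tested. An adjusted p below 0.05 was reached by 5 of the 7, against 47.9% of all genes. At 10 weeks 5 of 8 were above 0, with a median of 0.47 against 0.31 over all genes. With age 5 of 8 were above 0 in the wild type, with a median of 0.09 against -0.44 over all genes, and 2 of 8 in *Socs3* cKO, with a median of -0.22 against 0.11. In these comparisons 2 of 8 members (10 weeks), 3 of 8 (age in the wild type), 2 of 8 (age in *Socs3* cKO) and 2 of 8 (difference between ages) had an adjusted p below 0.05, against 37.6%, 50.8%, 10.1% and 47% of all genes. Median-of-ratios scaling moved the median of all genes at 10 weeks to 0.06 and that of the wild type with age to -0.05. The counts above 0 at both ages and with age in *Socs3* cKO were the same under both other scalings. With age in the wild type, *Cpa3* turned above 0 with median-of-ratios scaling, and *Cma1* and *Mcpt4* turned below 0 with quantile normalization. The counts above 0 also depend on the length and GC trend. With that trend removed, *Cma1* (-0.24), *Mcpt4* (-0.32) and *Cpa3* (-0.29) were below 0 at 2 weeks and *Ms4a2* was at 0.15. *Tpsb2* and *Hdc* stayed above 0, and the median over all genes was -0.25. The share of higher genes among all DEGs at 10 weeks was 83.7% from the deposited values and 62.9% with median-of-ratios scaling.

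**Figure D3:**
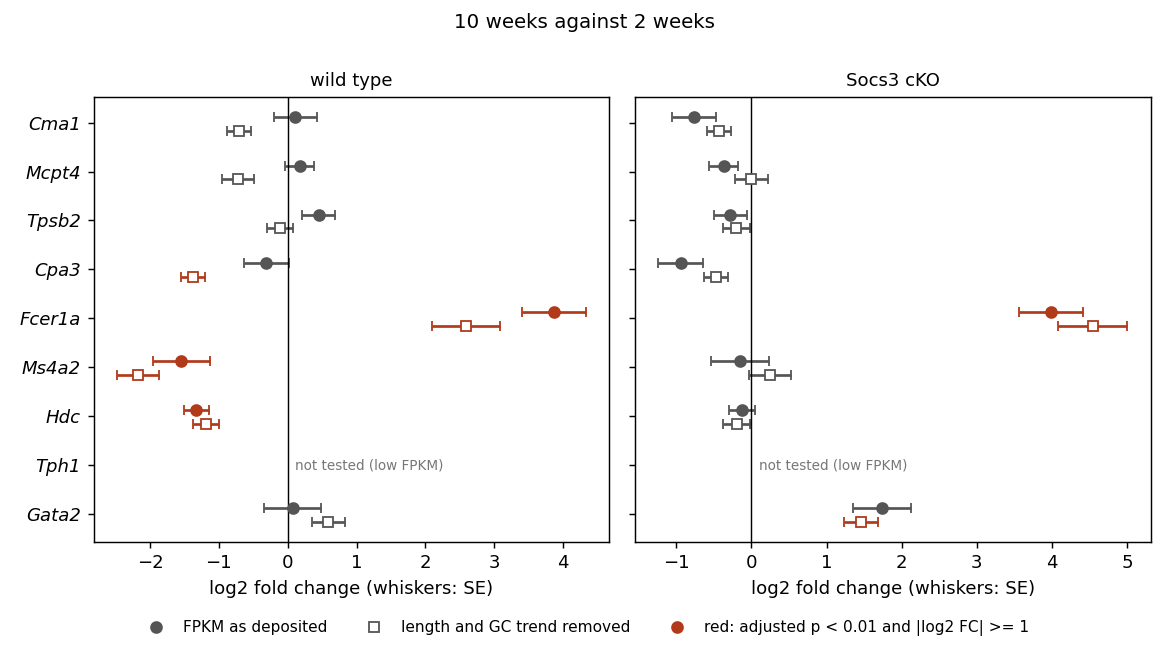
Log2 fold change from 2 to 10 weeks with its SE for each member in the wild type (left) and in *Socs3* cKO (right), with symbols and colours as for the genotype comparison. *Fcer1a* was called in both genotypes and under both treatments, at 3.87 and 3.99 from the deposited values, and *Ms4a2* and *Hdc* were called lower in the wild type, at -1.54 and -1.33.

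Ratios of members within a library do not depend on how libraries are scaled to each other. The ratio of *Fcer1a* to *Ms4a2*, the alpha and beta chains of the IgE receptor, was 0.0454 ± 0.0134 (SD, n = 4) for the wild type against 0.0358 ± 0.0138 (SD, n = 4) for *Socs3* cKO in 2-week mice. In 10-week mice it was 5.03 ± 3.09 (SD, n = 3) for the wild type, with a range of 1.5 to 7.22, against 0.884 ± 0.263 (SD, n = 4) for *Socs3* cKO, with a range of 0.588 to 1.18. At 2 weeks *Fcer1a* rests on an estimated 1.14 to 4.60 reads for each library. In the wild type at 10 weeks *Ms4a2* rests on 9.30 to 41.6 reads, so these ratios are approximate. The ranges of the ages did not overlap in either genotype, nor did those of the genotypes at 10 weeks. In 10-week mice the ratio of *Hdc* to *Mcpt4* ran from 0.0131 to 0.0267 for the wild type against 0.0448 to 0.0917 for *Socs3* cKO, without overlap. In 2-week mice it ran from 0.0449 to 0.0572 against 0.05 to 0.069, with overlap. *Ms4a2* to *Mcpt4* ran from 0.01 to 0.0147 for the wild type against 0.0177 to 0.0421 for *Socs3* cKO in 2-week mice, and from 0.00124 to 0.00745 against 0.0211 to 0.0359 in 10-week mice, without overlap at either age. *Tpsb2* to *Mcpt4* had group means from 0.247 to 0.300. *Cpa3* to *Cma1*, both of the granule, was 0.769 ± 0.0314 (SD, n = 4) and 1.18 ± 0.0993 (SD, n = 4) at 2 weeks, and 0.593 ± 0.184 (SD, n = 3) and 1.04 ± 0.0311 (SD, n = 4) at 10 weeks, higher in every *Socs3* cKO mouse at each age. Ratios keep any effect of length and GC content on the genes compared.

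**Figure D4:**
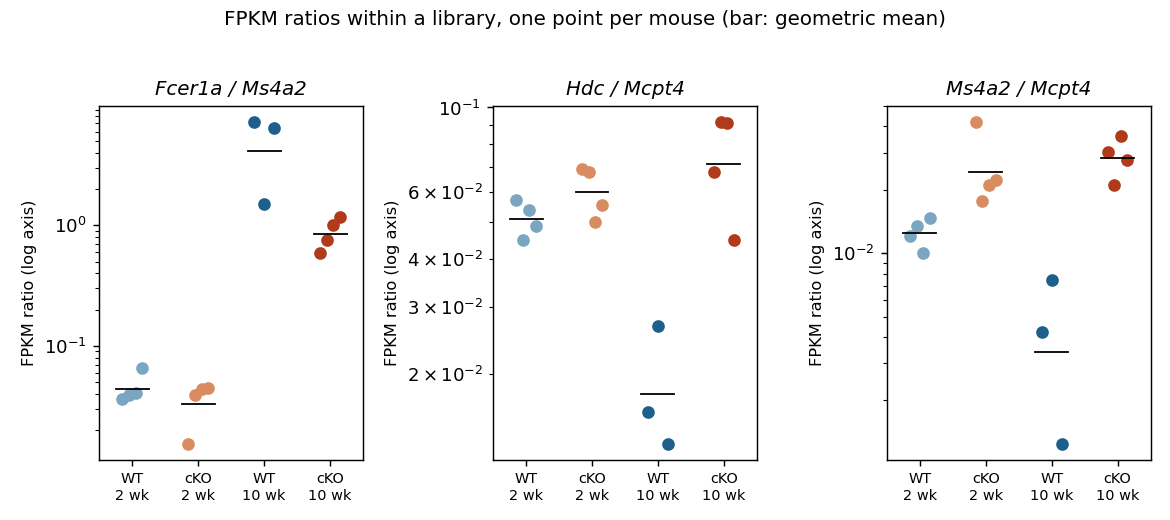
FPKM ratio of 2 members within each library on a log axis, with 1 point for each mouse and the geometric mean as a bar, for *Fcer1a* to *Ms4a2* (left), *Hdc* to *Mcpt4* (middle) and *Ms4a2* to *Mcpt4* (right). *Fcer1a* to *Ms4a2* was at most 0.0654 in every mouse at 2 weeks and at least 0.588 in every mouse at 10 weeks, and both other ratios were lowest in the wild type at 10 weeks. At 2 weeks *Fcer1a* rests on an estimated 1.14 to 4.60 reads for each library.

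Other genes known in mast cells were counted in 5 lists. Among 12 other granule genes, 6 passed the filter, and the chymase-related *Mcpt8*, a basophil protease in mice, was below 1 FPKM in every library. *Srgn*, the core protein that carries granule heparin, had means of 22.0 FPKM for the wild type against 43.3 FPKM for *Socs3* cKO in 2-week mice and 28.0 against 65.0 FPKM in 10-week mice, the order of genotypes kept for all means below, and was the 1 gene of the list called at 10 weeks (log2(FC) 1.17, SE 0.23, adjusted p = 0.00422, limma). None of the 6 was called at 2 weeks, where 14.4% of all genes were, against 14.9% of all genes at 10 weeks. *Slc18a2*, the transporter that loads amines into granules, had means of 1.84 and 1.97 FPKM at 2 weeks and 2.38 and 2.22 FPKM at 10 weeks, with no call. *Ndst2*, an enzyme of heparin synthesis, was called lower with age in the wild type (log2(FC) -1.39, SE 0.33, adjusted p = 0.00378, limma), and its genotype effect differed between the ages (1.68, SE 0.45, adjusted p = 0.00905, limma).

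Of 15 receptors and signalling genes, 14 were found and tested. *Kit*, the receptor for stem cell factor, had means of 6.37 against 3.68 FPKM at 2 weeks and 3.56 against 5.41 FPKM at 10 weeks, with a log2(FC) of -0.88 (SE 0.33, adjusted p = 0.0557, limma) and 0.71 (SE 0.31, adjusted p = 0.1, limma). Melanocytes also use *Kit*, and the summed level of 4 melanocyte genes was 150 to 206 against 127 to 328 FPKM at 2 weeks and 53.0 to 80.4 against 46.8 to 112 FPKM at 10 weeks, with 0 of 4 called between genotypes at either age. The 2-week sums hold genes that went both ways, with a log2(FC) of -0.67 for *Dct* and -0.07 for *Tyr*. It was 0.69 for *Mlana* and 0.26 for *Tyrp1*. At 2 weeks the list held 1 call, *Mrgprb1*, a receptor of the Mrgpr family (log2(FC) 1.38, SE 0.25, adjusted p = 0.00437, limma), where 14.4% of all genes were called. Its relative *Mrgprb2*, which lets basic peptides activate mast cells, had means of 4.31 and 8.68 FPKM at 2 weeks (log2(FC) 0.93, SE 0.27, adjusted p = 0.0236, limma) and 4.49 and 4.04 FPKM at 10 weeks. At 10 weeks 4 of 14 were called higher, where 12.5% of all genes tested were, and none lower, and none of the 4 calls stood under either other scaling. They were *Plcg2*, a phospholipase, and *Il1rl1*, the receptor for IL-33 (means 0.647 and 2.19 FPKM, log2(FC) 1.64, SE 0.36, adjusted p = 0.00727, limma), *Csf2rb*, a shared chain of cytokine receptors (1.41, SE 0.32, adjusted p = 0.00834, limma), and *Lyn*, a kinase that phosphorylates the IgE receptor (1.15, SE 0.21, adjusted p = 0.00355, limma). *Il1rl1* passed the filter at 10 weeks through the *Socs3* cKO group, where its lowest level was 1.47 FPKM. *Fcer1g*, the gamma chain that the IgE receptor shares with other Fc receptors, had means of 52.3 and 86.1 FPKM at 2 weeks and 114 and 114 FPKM at 10 weeks, and rose with age in the wild type (log2(FC) 1.09, SE 0.28, adjusted p = 0.00541, limma). In the wild type with age, *Lat*, a signalling adaptor, also rose (1.87, SE 0.23, adjusted p = 3.16e-05, limma) and *Plcg2* fell (-1.41, SE 0.33, adjusted p = 0.00308, limma). Of all genes tested, 25.5% were called in that comparison. In *Socs3* cKO none of the 14 was called with age by limma, where 3.54% of all genes were. A genotype effect that differed between ages was called for 4 of 14, against 24.5% of all genes, led by *Csf2rb* (2.63, SE 0.52, adjusted p = 0.00185, limma).

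All 7 listed enzymes of eicosanoid synthesis were found, and 6 were tested at 2 weeks. *Hpgds*, which forms prostaglandin D2 in mast cells, had means of 6.03 and 7.87 FPKM at 2 weeks and 4.34 and 7.40 FPKM at 10 weeks, without a call (at 10 weeks log2(FC) 0.78, SE 0.27, adjusted p = 0.0459, limma). Called higher at 2 weeks were *Ltc4s*, the leukotriene C4 synthase (2.00, SE 0.26, adjusted p = 0.00103, limma), and *Pla2g4a*, the phospholipase that frees arachidonic acid (1.28, SE 0.21, adjusted p = 0.0026, limma). Called higher at 10 weeks were *Ptgs2*, the inducible cyclooxygenase that many cell types make (6.10, SE 0.36, adjusted p = 1.22e-05, limma), and *Alox5*, the 5-lipoxygenase (1.04, SE 0.21, adjusted p = 0.00511, limma). Of all genes tested, 7.24% were called higher at 2 weeks and 12.5% at 10 weeks. *Ptgs2* passed the filter through the 10-week *Socs3* cKO group alone, with at most 0.830 FPKM in the wild type at 10 weeks. *Ltc4s* means were 2.60 against 11.1 FPKM at 2 weeks and 18.7 against 8.75 FPKM at 10 weeks, where the log2(FC) of -1.06 was not called (SE 0.25, adjusted p = 0.011, limma). Its genotype effect differed between the ages by -3.06 (SE 0.39, adjusted p = 8.99e-05, limma), and that of *Ptgs2* by 5.26 (SE 0.50, adjusted p = 1.28e-05, limma), the 2 enzymes of 7 called for such a difference. Of all genes tested, 24.5% were called for it. *Ltc4s* also rose with age in the wild type (2.76, SE 0.28, adjusted p = 6.24e-06, limma) and *Ptgs2* in *Socs3* cKO (5.73, SE 0.34, adjusted p = 3.32e-07, limma).

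Of 11 factors and ligands of mast cells, 10 were found and 7 tested. *Kitl*, the stem cell factor, had means of 7.38 and 9.88 FPKM at 2 weeks and 7.28 and 10.3 FPKM at 10 weeks, with no call. *Mitf*, a transcription factor of mast cells and melanocytes, had means of 7.08 and 4.35 FPKM at 2 weeks and 2.89 and 4.95 FPKM at 10 weeks. It fell with age in the wild type (log2(FC) -1.31, SE 0.25, adjusted p = 0.000892, limma), and its genotype effect differed between the ages (1.54, SE 0.34, adjusted p = 0.00334, limma). At 2 weeks *Il33*, an alarmin that acts on mast cells, was higher in *Socs3* cKO (3.21, SE 0.27, adjusted p = 0.000125, limma) and *Runx1*, a blood cell transcription factor also found in skin epithelium, was lower (-1.82, SE 0.24, adjusted p = 0.00104, limma). Of all genes tested at 2 weeks, 7.24% were called higher and 7.19% lower. At 10 weeks 1 gene was called, *Gata3*, lower in *Socs3* cKO (-1.77, SE 0.31, adjusted p = 0.00306, limma), where 2.43% of all genes were called lower. In the wild type with age *Il33* and *Tslp* were called higher and *Runx1* and *Mitf* lower. Over all genes, 6.18% were called higher and 19.4% lower in that comparison. In *Socs3* cKO 1 of 7 was called with age, *Runx1*, higher (1.04, SE 0.22, adjusted p = 0.0074, limma), where 3.54% of all genes were called. The genotype effect differed between the ages for 3 of 7, against 24.5% of all genes, higher at 10 weeks for *Runx1* (2.73) and *Mitf* and lower for *Il33* (-2.48). The growth factors *Il3* and *Il9* and the factor *Gata1* were below 1 FPKM in all libraries. Among 5 receptors for mast cell products, *Hrh1* to *Hrh4* for histamine were also below 1 FPKM throughout. *F2rl1*, the protease-activated receptor that tryptase can cleave, was lower in *Socs3* cKO at 2 weeks (-1.09, SE 0.17, adjusted p = 0.00261, limma) and higher at 10 weeks (1.34, SE 0.30, adjusted p = 0.00779, limma), a difference between the ages of 2.42 (SE 0.36, adjusted p = 0.0003, limma), and it fell with age in the wild type (-1.99, SE 0.26, adjusted p = 5.38e-05, limma).

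In a check chosen after seeing the data, the calls in these lists were also read under both other scalings and with the length and GC trend removed. At 2 weeks those of *Ltc4s*, *Il33* and *Runx1* stood under all 3, and *Mrgprb1* and *Pla2g4a* were lost with the trend removed, at 0.41 and 0.55. At 10 weeks those of *Ptgs2* and *Gata3* stood under all 3. *Il1rl1* was lost under all 3, with values from 1.12 to 1.40, as were *Lyn*, with values from 0.71 to 0.93, and *Plcg2*, with values from 0.71 to 0.98, and *Srgn*, *Csf2rb*, *Alox5* and *F2rl1* were lost under both scalings, *F2rl1* also at 2 weeks. Each of these kept its sign. With age in the wild type *Lat*, *Ltc4s*, *Il33* and *Runx1* stood under all 3, and *Mitf* was lost under both scalings. *Ndst2* and *Plcg2* were lost under quantile normalization and with the trend removed, as was *Fcer1g* with the trend removed, at 0.19 (adjusted p = 0.249, limma). *Tslp* (1.27 as first fitted) stood under both scalings and turned its sign with the trend removed, at -0.056 (adjusted p = 0.903, limma). With age in *Socs3* cKO *Ptgs2* stood under all 3 and *Runx1* was lost under all 3, with values from 0.81 to 0.96. Of the differences between ages, *Ndst2* was lost under all 3, with values from 0.92 to 1.22, and *Mitf* under both scalings, at 1.08 and 0.66. *Il1rl1* and *Lyn* were lost under both scalings as well, *Il1rl1* also with the trend removed, and *Plcg2* under quantile normalization and with the trend removed, while *Csf2rb*, *Ltc4s*, *Ptgs2*, *Runx1*, *Il33* and *F2rl1* stood under all 3.

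Several members are also known from other cells of the ear, so markers of those cells were measured in the same libraries. For basophils, *Mcpt8* and *Prss34* were below 1 FPKM in every library, *Prss34* was listed at 0 in all 8 *Socs3* cKO mice, and 5 basophil genes summed to 3.40 to 3.61 FPKM for the wild type against 3.61 to 6.69 FPKM for *Socs3* cKO in 2-week mice, and 2.93 to 3.82 against 4.62 to 7.15 FPKM in 10-week mice. The sums hold genes that went both ways. *Mcpt8* means were 0.547 against 0.139 FPKM at 2 weeks and 0.230 against 0.115 FPKM at 10 weeks, and *Prss34* was also lower in *Socs3* cKO. *Itga2* means were 0.548 against 1.94 FPKM and 0.272 against 2.05 FPKM. *Cd200r3*, also on the receptor list above, had higher means in *Socs3* cKO. *Il4* means were 0.836 against 0.602 FPKM and 1.06 against 1.65 FPKM. Of the basophil genes tested, the integrin *Itga2* was called higher in *Socs3* cKO at each age, at 2 weeks not with the trend removed (1.41, adjusted p = 0.0101, limma). It passed the filter at each age through the *Socs3* cKO group. In the wild type it was at most 0.824 FPKM at 2 weeks and 0.511 FPKM at 10 weeks. *Hdc* is also known in myeloid cells, and 4 of 6 macrophage genes were called higher in *Socs3* cKO at 10 weeks (*Cd68* alone under both other scalings and with the trend removed), where they summed to 264 to 437 FPKM for the wild type against 622 to 1050 FPKM for *Socs3* cKO. At 2 weeks 0 of 6 were called by limma, with sums of 218 to 249 and 332 to 687 FPKM. Neutrophil genes summed to at most 12.3 FPKM in any library, with 0 of 3 tested called at 10 weeks and *Ngp* below 1 FPKM in every library. *Gata2* is also known in endothelial cells, and 3 of 6 endothelial genes were called higher in *Socs3* cKO at 10 weeks, with sums of 23.0 to 26.3 FPKM for the wild type against 42.3 to 63.0 FPKM for *Socs3* cKO. Of these, *Kdr* was called under both other scalings, *Pecam1* (0.99) was lost under quantile normalization and *Cdh5* under both scalings. *Kdr* passed the filter at 10 weeks through the *Socs3* cKO group, with 0.514 to 1.19 FPKM in the wild type. At 2 weeks the endothelial sums were 66.5 to 76.6 against 57.1 to 68.2 FPKM, and the genes went both ways. *Emcn* was called higher in *Socs3* cKO (1.31, SE 0.23, adjusted p = 0.00364, limma), but not with the trend removed, at 0.45. *Cdh5* (-1.65), *Tie1* (-1.17), *Kdr* (-0.42) and *Pecam1* (-0.07) lay below 0 and *Tek* (0.25) above, none of them called. In the wild type 5 of the 6 endothelial genes were called lower with age (*Tek* and *Tie1* under neither other scaling, and *Tie1* not with the trend removed), from a sum of 66.5 to 76.6 FPKM. Over all genes tested, 7.24% were called higher in *Socs3* cKO at 2 weeks and 12.5% at 10 weeks. With age in the wild type 19.4% were called lower. The part of these cells in the differences of *Hdc*, *Ms4a2* and *Gata2* was not tested. For leukocytes as a whole, *Ptprc* was the 1 of 4 genes called higher at 10 weeks (lost under quantile normalization, at 0.98, and with the trend removed, at 0.88) and 0 of 4 were called by limma at 2 weeks.

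Within groups, some members varied together from mouse to mouse, described here as Pearson's r over the 15 libraries of the deviations from the group means, which share scaling, depth and the GC slope of each library. *Mcpt4* and *Tpsb2* had r = 0.93 (Spearman's rho 0.81), and *Cma1* and *Cpa3* had r = 0.89 (rho 0.62). *Cma1* and *Gata2* had r = -0.73, which was -0.43 without *Socs3* cKO replicate 1 at 2 weeks. Among 13929 genes outside the list, *Fam32a*, *Smpdl3a*, *Ctsl*, *Emb*, *St7l*, *Laptm4a*, *Hscb*, *Lrrc49*, *Cdc5l* and *Akr1c14* deviated most like the mean of the 8 members that passed the filter, with r from 0.87 to 0.92 and rho from 0.74 to 0.91. Without the 2 mice farthest from the median, replicates 4 and 2 of *Socs3* cKO at 10 weeks, r ranged from 0.71 to 0.87 over 13 libraries.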

How the data were processed

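Ear RNA of 15 mice was sequenced with an unstranded kit (TruSeq v2) as single reads of 50 bases. The authors deposited 1 FPKM value for each of 21110 genes and library. The submitters' processing notes name mm9, TopHat2 2.1.0 and Cufflinks. Read counts were not used here, and mapped reads were estimated from the FPKM that 1 read gives, so read numbers are approximate and cover counting error only.

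Values were analysed as log2(FPKM + 0.1) with limma 3.58.1 (R 4.3.3, trended prior variance). Genes with at least 1 FPKM in at least 3 samples of a fit were tested 2-sided with Benjamini-Hochberg adjustment over all of them, and a gene was called a DEG at the study's thresholds, an adjusted p below 0.01 with a |log2(FC)| of at least 1. Genotypes were compared within an age on their own 2 groups. Changes with age and the difference of genotype effects were fitted on all 4 groups. Comparisons that share a group are not independent. The limma step was tested on simulated data. All members were named, and from each list at most 3 called genes for each comparison plus *Kit*, *Kitl*, *Mitf*, *Mcpt8*, *Mrgprb2*, *Fcer1g*, *Il1rl1*, *Srgn*, *Slc18a2* and *Hpgds*. Marker genes beside these were named as defining markers. Members, lists and tests were chosen with earlier results of these data known.

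Groups and replicate numbers came from the labels. The study describes more wild type mice, which were not analysed here. Gene positions, transcript GC content and shared words came from GENCODE M1 on mm9. The length and GC trend was a spline of 5 degrees of freedom for each library. Other alternatives were other pseudocounts (1 and 0.01), filters, scalings, prior variance, thresholds, a replicate block and leaving out each mouse. Python 3.11.15, numpy 2.4.6, pandas 2.3.3, scipy 1.17.1 and matplotlib 3.10.9 were used.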

Additional observations from a re-analysis of the deposited data

Results flagged for a closer look

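In 27 groups of 4 mice (9 genes in 3 groups), the highest or lowest mouse was tested for its distance from the others by Dixon's ratio, which chance exceeds in about 1 group of 20. The wild type at 10 weeks has 3 mice and was not tested. *Mcpt4* in *Socs3* cKO replicate 4 at 10 weeks, at 303 FPKM against 171 to 177 FPKM in the other 3 mice, gave a ratio of 0.934. *Gata2* in *Socs3* cKO replicate 1 at 2 weeks, at 0.684 FPKM against 3.17 to 4.06 FPKM, gave a ratio of 0.856. That library also had the steepest slope of level on GC content, -1.77 on the log2 scale for every 10 percentage points, and the part of the slope in the *Gata2* value was not tested. The genotype effect on *Hdc* differed between the ages by 1.20 on the log2 scale (adjusted p = 0.00221, limma), being 0.74 at 2 weeks and 1.94 at 10 weeks.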

How the results depend on the processing

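The number of members called at 2 weeks, 1, became 0 without a filter, 2 with quantile normalization, 2 with all 4 groups in one fit, 5 at an adjusted p below 0.05 without a minimum fold, and 0 to 2 when each mouse was left out (0 without any 1 wild type mouse or *Socs3* cKO replicate 3 or 4, 2 without replicate 2). The share of all genes called moved as well, from 14.4% to 6.72%, 21.2%, 23.7% and 47.9% in the same order. It was 6.40% to 24.9% when each mouse was left out. At 10 weeks the 2 calls became 1 without a filter (*Ms4a2* at an adjusted p of 0.0133, limma) and stayed 2 when each mouse was left out. Over all genes 14.9% were called, 5.36% without a filter and 5.76% to 20.7% when each mouse was left out. The 1 call for a genotype effect that differs between ages became 0 under quantile normalization, 0 under median-of-ratios scaling, 2 at an adjusted p below 0.05, and 1 to 2 when each mouse was left out (2 without *Socs3* cKO replicate 1 or 2 at 2 weeks). The share of all genes went from 24.5% to 25.7%, 23.5% and 47.0% in that order, and to 14.1% to 34.8% when each mouse was left out. The 3 calls with age in the wild type became 1 with either scaling and 2 to 3 when each mouse was left out. They became 4, with *Cpa3* added, when the length and GC trend was removed. Of all genes 25.5% were called as first fitted, 23.6% to 23.7% with these scalings and 21.7% with the trend removed. The share was 15.9% to 32.5% when each mouse was left out. The 1 call with age in *Socs3* cKO became 2, with *Gata2* added, under a pseudocount of 1, the stricter filter, either scaling, removal of the length and GC trend and an adjusted p below 0.05, and 1 to 2 when each mouse was left out. The share of all genes was 3.54% as first fitted and 3.08% to 4.87% under these settings. It was 10.1% at an adjusted p below 0.05 and 2.16% to 5.03% when each mouse was left out.

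Removing the length and GC trend turned the sign at 2 weeks of *Cma1* (-0.24), *Mcpt4* (-0.32) and *Cpa3* (-0.29), at 10 weeks of *Cma1* (0.056), *Mcpt4* (0.44) and *Tpsb2* (0.55), in the difference between ages of *Cma1* (0.27), *Mcpt4* (0.73) and *Cpa3* (0.90), with age in the wild type of *Cma1* (-0.71), *Mcpt4* (-0.73) and *Tpsb2* (-0.11), and with age in *Socs3* cKO of *Ms4a2* (0.25). The difference between ages of *Fcer1a* turned to -0.22 at a pseudocount of 0.01, -0.97 under quantile normalization and -0.24 under median-of-ratios scaling. With age in the wild type, *Cpa3* became 0.082 with median-of-ratios scaling, and *Cma1* -0.058 and *Mcpt4* -0.024 under quantile normalization. Leaving out each mouse gave -0.23 to 0.098 for *Mcpt4* and -0.37 to 0.014 for *Tpsb2* at 10 weeks, -0.22 to 0.64 for the *Fcer1a* difference between ages, -0.011 to 0.21 for *Cma1* and -0.022 to 0.13 for *Gata2* with age in the wild type, and -0.39 to 0.097 for *Ms4a2* with age in *Socs3* cKO. None of these was called in the main comparisons, and the cause was not tested.

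Replicate numbers did not pair the mice. Same-numbered mice at 2 weeks had correlations of -0.057 to 0.057, and 2 of 4 *Socs3* cKO mice correlated best with the wild type mouse of their number. With the replicate block the number of members called at 2 weeks was 0, where 5.55% of all genes were called, and the *Fcer1a* difference between ages was -0.065. Fitting the age comparisons on their own 2 groups was chosen after seeing the data. Depth limits *Fcer1a* and *Tph1* at 2 weeks and *Ms4a2* in the wild type at 10 weeks.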
